A study of Mus musculus with 6 samples.

Results

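The mitochondrial ribosomal protein genes were taken as every gene in the count tables whose symbol begins with Mrpl or Mrps and a digit, leaving out symbols ending in -ps plus a number, of which there were 0. This gave 78 of 27179 genes, 49 named for the large subunit (Mrpl) and 29 for the small subunit (Mrps). Quadriceps muscle was compared between 3 control mice (B, C, D) and 3 miDrp1KO mice (A, E, F), by total RNA-seq after depletion of ribosomal RNA. The miDrp1KO mice carried floxed alleles of *Dnm1l*, the gene of the mitochondrial fission GTPase Drp1, and a tamoxifen-inducible Cre (HSA-MerCreMer) driven by the human skeletal α-actin promoter, which restricts deletion to skeletal muscle fibres. The control mice were labelled as floxed. Per the study's methods, the floxed lines were backcrossed to C57BL/6J and both groups received tamoxifen at 3 months of age. The mice are taken here as male and on normal chow from the same methods, whose RNA-seq section gives neither sex nor diet. Some mice of the study received a high-fat diet. Per the study's text, muscle was taken 3 weeks after deletion. Cre acts only in muscle fibres, so the other cells of the muscle keep *Dnm1l*, and in bulk muscle fewer cells of a type and less RNA per cell cannot be told apart. No label states whether the controls carried Cre.

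The mitochondrial ribosome makes the few proteins that mitochondrial DNA still encodes, which are core subunits of the respiratory chain and ATP synthase. Its ribosomal RNA comes from mitochondrial DNA, whereas its proteins are encoded in the nucleus, made in the cytosol and imported. Some of them descend from bacterial ribosomal proteins, and others were added during the evolution of mitochondria. The large subunit joins amino acids and releases the new chain through a tunnel that faces the inner membrane, and the small subunit binds and decodes the mRNA. Skeletal muscle, which is rich in mitochondria, depends on the products of this ribosome for its oxidative supply of ATP.

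Library totals ran from 13989588 to 62042255 counts in the controls and from 20028624 to 28829756 in the miDrp1KO mice. The share of counts on ribosomal RNA genes was 15.6%, 7.95% and 3.36% in the controls, and 23.0%, 1.48% and 24.4% in miDrp1KO libraries A, E and F. *Dnm1l* was lower in every miDrp1KO library, at 137 ± 21.2 CPM in controls and 72.7 ± 7.76 CPM in miDrp1KO (SD, n = 3 each), with a log2 fold change of -0.91 (SE 0.18) and an adjusted p of 0.362 by edgeR (quasi-likelihood F-test, adjusted by the Benjamini-Hochberg method). CPM were scaled to the TMM library size, and values of single libraries are given here and below in the order B, C, D for the controls and A, E, F for miDrp1KO. Markers of skeletal muscle were abundant in all libraries. The summed level of 15 muscle genes, most of them fast-fibre genes, was 295604 to 357799 CPM in controls and 272932, 170246 and 141944 CPM in miDrp1KO A, E and F, and 13 of the 15 had a log2 fold change below 0. The 8 slow-fibre genes summed to 480, 72.9 and 107 CPM in the controls and to 99.5, 794 and 713 CPM in miDrp1KO A, E and F. The 7 adipose genes, which mark fat cells, summed to 428 to 691 CPM in controls and 284 to 408 CPM in miDrp1KO. Peripheral nerve genes summed to 37.0 to 52.1 CPM and 40.7 to 72.6 CPM, macrophage genes to 127 to 222 CPM and 158 to 197 CPM, endothelial genes to 155 to 278 CPM and 162 to 252 CPM, fibroblast genes to 1147 to 1680 CPM and 1325 to 2008 CPM, and blood genes to 47.7 to 274 CPM and 74.5 to 232 CPM in controls and miDrp1KO, respectively. The part of these differences in the results below was not tested. The 15 genes of the mitochondrial chromosome that the tables list held 0 counts in total, so neither the ribosomal RNA of this ribosome nor the mRNAs it translates were measured.

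Promoters of mitochondrial ribosomal protein genes are shown for the members on which the comparison turns, because their messengers are the quantity measured. They are RefSeq sequences of GRCm38.p6, written 5′ to 3′ on the strand of the gene, from 250 bases before to 50 bases after the start site. Capitals mark matches, on either strand, to the motif of nuclear respiratory factor 1 (NRF-1, the letters GCGCA and GCGC with 1 base of any kind between them), CCGGAAG (ETS factors, which include GABP), AAGATGGC (YY1) and GGGCGG (the GC box bound by Sp1). In these 5 promoters no match overlaps another except where GC boxes run together. NRF-1 and GABP are regulators long associated with nuclear genes of mitochondrial function. *Mrpl14* had the largest positive log2 fold change of all members and *Mrpl33* the lowest p-value, *Mrps24* the largest positive value in the small subunit, and *Mrpl49* the largest negative value. *Mrps11* and *Mrpl46* are transcribed in opposite directions from start sites 30 bp apart.
Mrpl14 (chr17:45686099-45686398, plus strand; NRF-1 and GC boxes): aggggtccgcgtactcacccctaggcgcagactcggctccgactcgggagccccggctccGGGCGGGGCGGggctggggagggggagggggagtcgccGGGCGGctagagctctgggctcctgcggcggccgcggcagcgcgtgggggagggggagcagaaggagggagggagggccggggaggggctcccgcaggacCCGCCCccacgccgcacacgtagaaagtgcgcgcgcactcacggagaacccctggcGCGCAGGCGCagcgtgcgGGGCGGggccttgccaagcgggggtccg
Mrpl33 (chr5:31613701-31614000, plus strand; ETS): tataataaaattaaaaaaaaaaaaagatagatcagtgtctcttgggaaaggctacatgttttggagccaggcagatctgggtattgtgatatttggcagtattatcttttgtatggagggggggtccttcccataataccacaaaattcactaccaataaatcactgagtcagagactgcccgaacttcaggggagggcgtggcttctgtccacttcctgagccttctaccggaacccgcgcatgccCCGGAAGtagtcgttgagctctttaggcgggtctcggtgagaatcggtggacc
Mrps24 (chr11:5707652-5707951, minus strand; GC boxes and YY1): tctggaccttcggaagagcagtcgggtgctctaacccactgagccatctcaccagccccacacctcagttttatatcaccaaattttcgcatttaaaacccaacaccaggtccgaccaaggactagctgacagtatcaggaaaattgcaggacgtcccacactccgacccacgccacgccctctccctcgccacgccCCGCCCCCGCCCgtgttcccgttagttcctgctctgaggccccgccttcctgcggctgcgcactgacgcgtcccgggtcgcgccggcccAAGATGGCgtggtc
Mrpl49 (chr19:6057706-6058005, minus strand; GC boxes and YY1): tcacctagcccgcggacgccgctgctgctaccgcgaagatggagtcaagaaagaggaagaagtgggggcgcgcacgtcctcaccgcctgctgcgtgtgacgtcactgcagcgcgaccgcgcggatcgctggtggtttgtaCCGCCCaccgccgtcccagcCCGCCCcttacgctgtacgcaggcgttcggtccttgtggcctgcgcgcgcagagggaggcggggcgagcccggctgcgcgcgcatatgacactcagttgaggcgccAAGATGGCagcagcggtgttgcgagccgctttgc
Mrps11 (chr7:78782881-78783180, plus strand; YY1 and GC box): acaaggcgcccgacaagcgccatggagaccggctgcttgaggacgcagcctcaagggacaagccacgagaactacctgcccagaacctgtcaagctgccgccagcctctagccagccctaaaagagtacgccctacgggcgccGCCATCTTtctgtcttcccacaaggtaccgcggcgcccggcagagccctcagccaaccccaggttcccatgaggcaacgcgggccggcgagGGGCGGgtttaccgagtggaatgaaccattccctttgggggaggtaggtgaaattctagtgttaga

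Motifs were counted in the RefSeq promoters of 69 of the 78 members. The NRF-1 motif was found in 13 (18.8%), against 5.19% of the 27018 genes with a RefSeq promoter, whether tested here or not. Motif shares over the tested genes alone were not computed. The ETS letters were found in 26 members (37.7%, against 9.93% of all genes), the YY1 letters in 12 (17.4%, against 3.19%) and the GC box in 34 (49.3%, against 38.2%). In large and small subunit genes, respectively, the shares were 23.3% and 11.5% for NRF-1, 34.9% and 42.3% for ETS, 14.0% and 23.1% for YY1, and 39.5% and 65.4% for the GC box, and these differences were not tested. These are descriptions of letters in a window of 300 bases, and no binding was measured. Members also often shared a promoter region with a neighbour on the opposite strand. By GENCODE vM21 (GRCm38), 27 of 78 members (34.6%) had the start site of an oppositely transcribed gene within 1000 bp upstream or overlapping by up to 200 bp, as did 1684 of 14833 tested genes matched to that annotation (11.4%). The 78 members lie on 17 chromosomes, with 11 on chromosome 11 and 8 on chromosome 17.

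In control muscle, levels per kilobase of transcript, the scale on which genes can be compared, spread widely within each subunit. The median of tested large subunit genes was 17.9 CPM per kb, from 2.19 for *Mrpl19* to 291 for *Mrpl42*. The median of the small subunit genes, all tested, was 10.5 CPM per kb, from 3.39 for *Mrps26* to 199 for *Mrps21*. Of the tested members, 33 of 48 large subunit genes and 16 of 29 small subunit genes were within 2-fold of their subunit's median. Next below *Mrpl42* in the large subunit came *Mrpl54* at 103 CPM per kb and *Mrpl30* at 82.0 CPM per kb, and next below *Mrps21* in the small subunit came *Mrps15* at 83.0 and *Mrps28* at 61.9 CPM per kb. *Mrpl47* (3.12 CPM per kb) and *Mrps35* (3.98 CPM per kb) were next to the lowest. The library values of *Mrpl54* and *Mrpl30* did not overlap in the controls, nor did those of *Mrps15* and *Mrps28*, whereas those of *Mrps26* and *Mrps35* did. The coefficient of variation between control libraries had a median of 10.7% over the members and ran from 1.69% (*Mrps22*) to 77.3% (*Mrpl23*). Level per kb rests on the median annotated transcript length, and a gene whose main muscle transcript is shorter or longer than that median is placed accordingly too low or too high. For *Mrps26* the length used, 4278 bp, exceeds its whole RefSeq locus (130563757 to 130565394 on chromosome 2). Its place as the lowest is therefore uncertain. The length of *Mrpl51*, 3427 bp, also exceeds its locus (125192200 to 125194392 on chromosome 6).

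**Figure D1:**
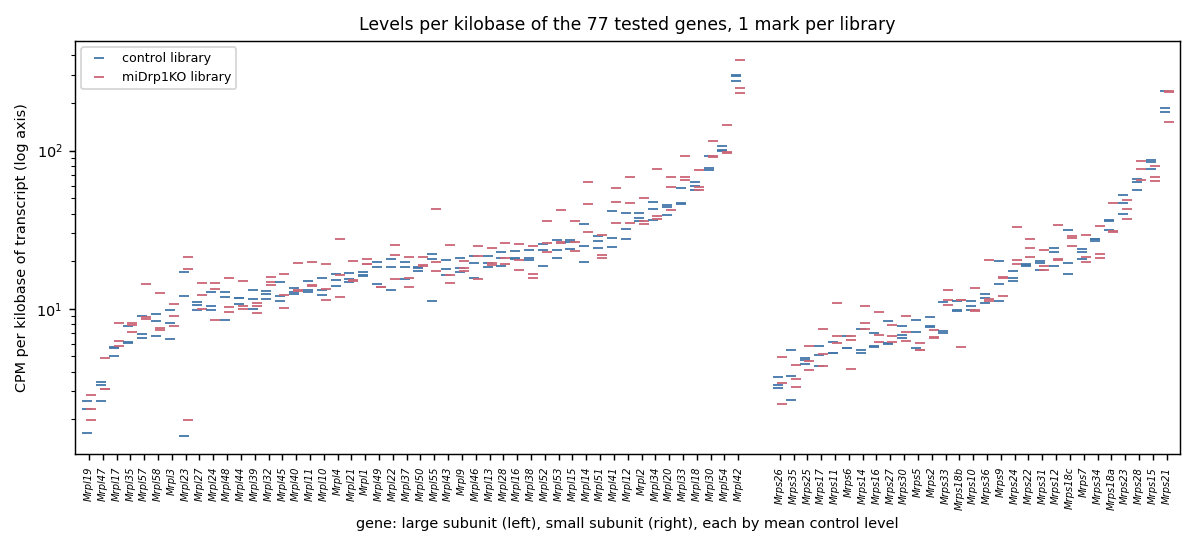
Level of the 77 tested members in CPM per kilobase of transcript on a log axis, with 1 mark per library (blue, 3 control libraries; red, 3 miDrp1KO libraries), ordered within each subunit by the mean of the controls. *Mrpl42* and *Mrps21* stand highest, and the marks of *Mrpl23* are split between libraries of both groups.

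Of the 78 members, 77 passed the filter on low counts. The exception was *Mrpl36*, which had 0 counts in 5 libraries and 2 counts in miDrp1KO F. No member passed an adjusted p of 0.05 by edgeR's quasi-likelihood test, and the lowest adjusted p was 0.380. In all, 2 of 16483 tested genes (0.0121%) passed. At an unadjusted p under 0.05, 8 of the 77 members (10.4%) were found, all of them higher in miDrp1KO, against 10.9% of all tested genes in both directions. In both directions together the share of members was close to that of all genes, whereas by direction it was 10.4% against 4.68% for higher and 0 members against 6.22% for lower. DESeq2 gave 6 members and limma voom 9 at an unadjusted p under 0.05, also all higher, against 7.33% and 12.8% of all genes, and 0 members at an adjusted p of 0.05.

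The estimates leaned to higher levels in miDrp1KO, more in the large subunit than in the small. In the large subunit 40 of 48 tested genes had a log2 fold change above 0, with a median of 0.15, and 5 had an unadjusted p under 0.05. In the small subunit 20 of 29 were above 0, with a median of 0.07, and 3 had an unadjusted p under 0.05. Over all tested genes 52.0% were above 0 and the median was 0.02. The 3 libraries of 1 group lay entirely outside the 3 of the other for 9 members (11.7%, against 18.0% of all tested genes). They lay above for 7 (9.09%, against 7.67%) and below for 2, against 10.3% of all tested genes. The difference between the subunits was not tested.

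**Figure D2:**
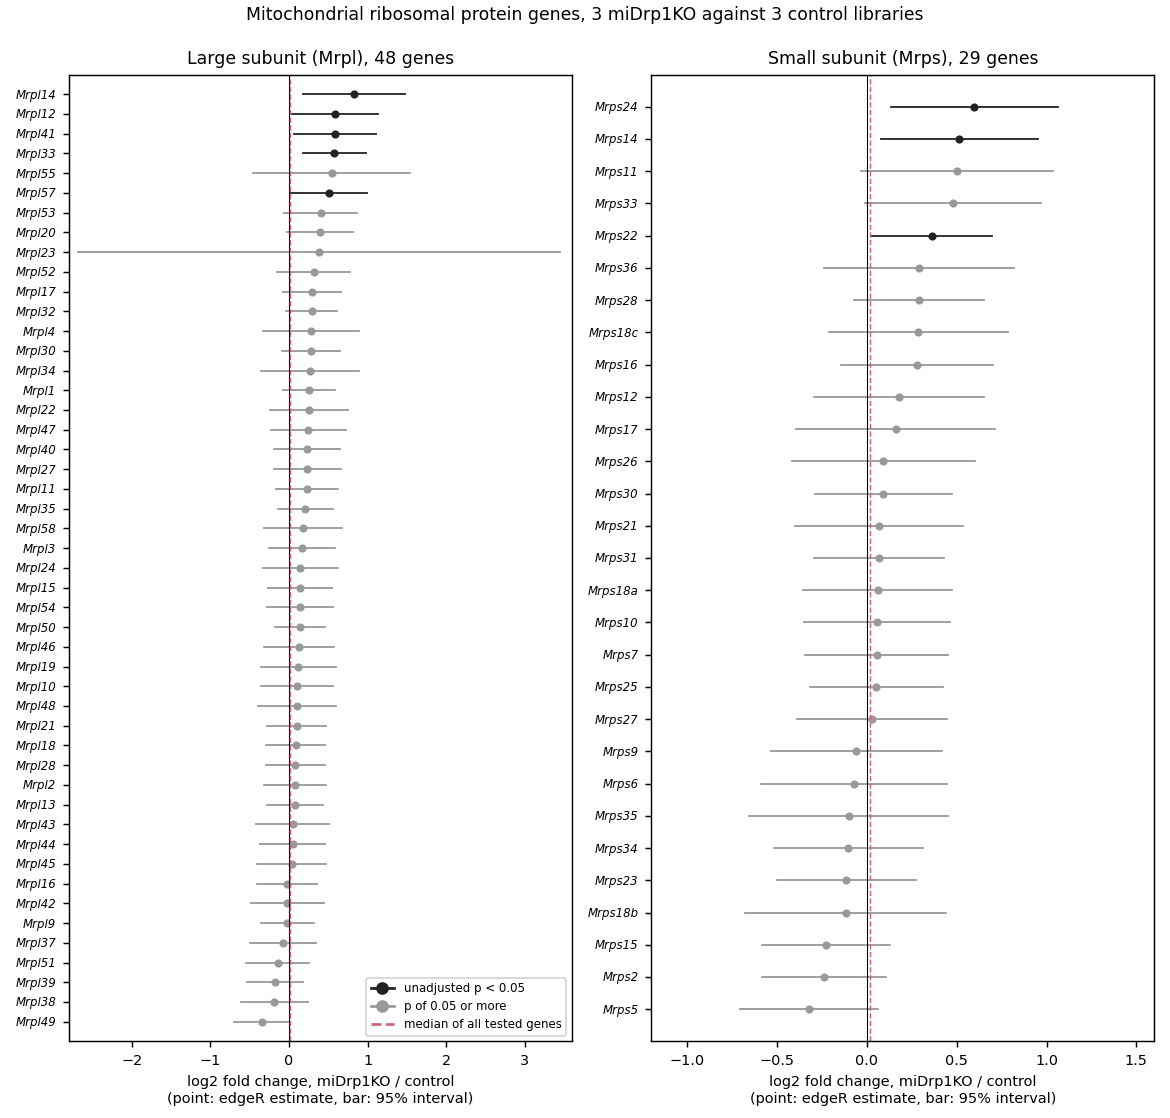
Log2 fold change (miDrp1KO over control) of the tested members from edgeR, with its 95% interval, for the large subunit (left, 48 genes) and the small subunit (right, 29 genes); the panels have different horizontal scales. Black marks have an unadjusted p under 0.05, all 8 lie to the right of 0, and the dashed line is the median of all tested genes (0.02).

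Under TMM scaling the lean rested on miDrp1KO library F. That library held the highest CPM of the 6 libraries for 57 of 77 members and the lowest for 3. The TMM factors were 0.84, 0.982 and 0.969 in the controls and 0.846, 1.42 and 1.04 in miDrp1KO A, E and F. CPM are divided by these factors, so the scaling lowered library E the most. Ranks of single libraries under another normalization were not computed. Relative to the mean of the controls on a log2 scale, the median large subunit gene was 0.43 higher in F, but 0.07 higher in E and -0.08 in A. The median small subunit gene was 0.34 higher in F, -0.04 in E and -0.08 in A. Summed over the large subunit, the controls gave 1558, 1422 and 1470 CPM, and miDrp1KO A, E and F gave 1410, 1612 and 1931 CPM. Summed over the small subunit, the controls gave 730, 706 and 707 CPM and miDrp1KO A, E and F gave 695, 668 and 869 CPM. Library A was thus below every control in both sums, E was above every control in the large subunit and below every control in the small, and F was the highest in both. Without library F, 24 of 48 large subunit genes were above 0 with a median log2 fold change of 0.0036, 9 of 29 small subunit genes were above 0 with a median of -0.08, and 3 members had an unadjusted p under 0.05, of which 1 was higher, against 7.79% of all genes in that fit. Without library A instead, 14 of 77 members had an unadjusted p under 0.05, all higher, against 17.5% of all genes, and the medians were 0.30 (large) and 0.18 (small). When the share of counts on ribosomal RNA genes was added to the model, which was high in both F and A, 2 members were at an unadjusted p under 0.05 (*Mrpl14* and *Mrpl33*), against 8.34% of all genes, with medians of 0.11 and -0.01.

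**Figure D3:**
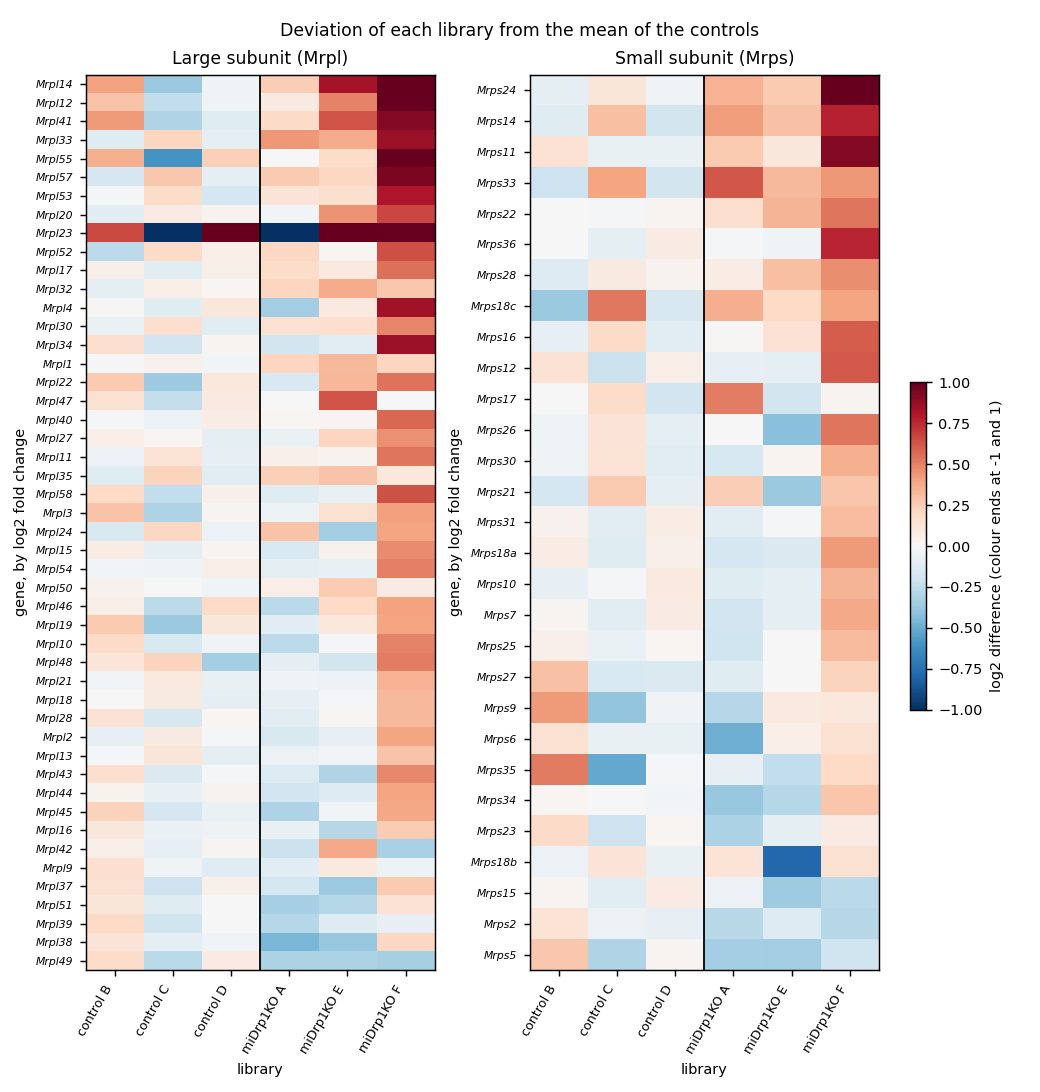
Each tested member (rows, ordered by log2 fold change within its subunit) in each library (columns) as the log2 difference from the mean of the controls, with colours ending at -1 and 1. The column of miDrp1KO F is red for most rows, with medians of 0.43 and 0.34, whereas the columns of A and E are mixed.

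In the large subunit, the genes with the strongest evidence were *Mrpl33*, *Mrpl14*, *Mrpl41*, *Mrpl12* and *Mrpl57*. *Mrpl33*, the homologue of bacterial L33, was at 22.0, 27.8 and 22.5 CPM in the controls and at 32.5, 31.2 and 44.1 CPM in miDrp1KO A, E and F. All 3 miDrp1KO libraries were above all 3 controls. The log2 fold change was 0.58 (SE 0.18, adjusted p = 0.380 by edgeR). *Mrpl33* had an unadjusted p under 0.05 under 14 of 15 alternative settings, and its estimate was 0.42 without library F. After correction for transcript length and GC content, the exception among the settings, it was 0.26. The locus shares 107 bp of exon on the same strand with the predicted gene *Gm43809*. Of the stretches of 50 bases of *Mrpl33*, 30.3% occur there too. How reads within the shared stretch were counted is not given in the sources used here.

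*Mrpl14*, which lies at the face that joins the small subunit and is the site where the anti-association factor Malsu1 docks, was at 22.1, 12.7 and 16.1 CPM in the controls and at 19.7, 29.8 and 40.9 CPM in miDrp1KO A, E and F. Library A lay within the controls, and E and F were above them. The log2 fold change was 0.83 (SE 0.29, adjusted p = 0.392). Without F it was 0.57. Its promoter, shown above, faces that of *Tmem63b*, a membrane channel gene that starts 63 bp away on the other strand. *Tmem63b* was at 49.7, 35.5 and 46.7 CPM in the controls and 32.0, 25.4 and 30.6 CPM in miDrp1KO, with a log2 fold change of -0.59 (SE 0.18, adjusted p = 0.379 by edgeR), so the estimates of the pair had opposite signs.

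*Mrpl12*, the stalk protein that recruits translation factors to the ribosome, was at 53.0, 36.4 and 42.0 CPM in the controls and 46.1, 61.3 and 89.9 CPM in miDrp1KO A, E and F. The mitochondria-specific *Mrpl41* was at 32.1, 19.2 and 21.8 CPM and at 27.2, 37.0 and 45.3 CPM. *Mrpl57*, also mitochondria-specific, was at 18.9, 25.9 and 19.9 CPM and at 25.7, 24.7 and 41.4 CPM. In all 3 genes the groups overlapped, through A in *Mrpl12* and *Mrpl41* and through A and E in *Mrpl57*, and F was the highest library. Their log2 fold changes were 0.59 (SE 0.25), 0.58 (SE 0.24) and 0.51 (SE 0.22), with adjusted p of 0.433, 0.418 and 0.443 by edgeR, and 0.32, 0.42 and 0.25 without F.

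Smaller differences with no overlap between the groups were seen in *Mrpl1*, *Mrpl32*, *Mrpl17* and *Mrpl50*. *Mrpl1*, a protein of the L1 stalk where spent tRNA leaves, was at 55.8, 58.4 and 55.7 CPM in the controls and 65.7, 71.2 and 65.9 CPM in miDrp1KO A, E and F. *Mrpl32*, whose precursor is cleaved by the m-AAA protease of the inner membrane, was at 34.7, 38.8 and 37.5 CPM and at 42.9, 47.9 and 44.7 CPM. These genes differed from most members in that library F did not stand out, and their log2 fold changes of 0.26 (SE 0.15) and 0.29 (SE 0.15) became 0.29 and 0.32 without F. Their adjusted p were 0.560 and 0.509 by edgeR. *Mrpl17* and *Mrpl50* had log2 fold changes of 0.29 (SE 0.17) and 0.14 (SE 0.15), and of 0.16 and 0.18 without F. *Mrpl55*, a protein of the central protuberance, had a log2 fold change of 0.54 (SE 0.42), and of 0.05 without F. The higher estimate came from library F, at 32.2 CPM against 8.45 to 16.9 CPM in the other 5.

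Among large subunit genes with lower estimates, the mitochondria-specific *Mrpl49* was at 30.3, 22.0 and 28.2 CPM in the controls and at 21.2, 21.2 and 21.1 CPM in miDrp1KO A, E and F. The miDrp1KO libraries were nearly equal and all below the controls. The log2 fold change was -0.34 (SE 0.16, adjusted p = 0.468), and -0.32 without F. Its promoter faces that of *Fau*, a gene of a cytosolic ribosomal protein that starts 59 bp away, at 15.3, 4.88 and 17.0 CPM in the controls and 4.13, 23.2 and 33.6 CPM in miDrp1KO. *Mrpl38* (-0.19, SE 0.19), *Mrpl39* (-0.18, SE 0.16), *Mrpl51* (-0.14, SE 0.18) and *Mrpl37* (-0.08, SE 0.19), all mitochondria-specific, followed, and their groups overlapped. Without library F, which was above the mean of the controls for *Mrpl38*, *Mrpl51* and *Mrpl37*, the 4 estimates were -0.41, -0.20, -0.29 and -0.26, and *Mrpl38* then had an unadjusted p under 0.05 but an adjusted p of 0.639 by edgeR.

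*Mrpl23*, which lines the tunnel exit, had the least certain estimate of all members, a log2 fold change of 0.38 with an SE of 1.14. It was at 8.29, 1.09 and 11.8 CPM in the controls and 1.36, 12.4 and 14.6 CPM in miDrp1KO A, E and F, so that C and A stood far below the other 4. Of its transcript's stretches of 50 bases, 66.7% also occur in *Mrpl23-ps1*, a pseudogene copy, and the sources used here do not state how reads on such copies were counted.

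In the small subunit, *Mrps24*, the homologue of bacterial S3 at the mRNA entry, was at 14.9, 17.3 and 15.5 CPM in the controls and at 20.4, 19.2 and 32.8 CPM in miDrp1KO A, E and F. All miDrp1KO libraries were above all controls. The log2 fold change was 0.60 (SE 0.21, adjusted p = 0.392 by edgeR), and 0.33 without F. *Mrps22*, a mitochondria-specific protein mutated in inherited mitochondrial disease, was the steadiest member among the controls, at 22.7, 22.4 and 23.1 CPM, and was at 25.6, 28.9 and 33.1 CPM in miDrp1KO. It too had no overlap between groups, with a log2 fold change of 0.36 (SE 0.15, adjusted p = 0.436), and 0.28 without F.

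*Mrps14*, the homologue of bacterial S14 and another gene of inherited disease, was at 10.4, 14.1 and 9.94 CPM in the controls and at 15.3, 14.0 and 19.7 CPM in miDrp1KO A, E and F. Control C and miDrp1KO E were nearly equal, so the groups overlapped slightly. The log2 fold change was 0.52 (SE 0.20, adjusted p = 0.408), and 0.38 without F. *Mrps11* (0.50, SE 0.24), whose product belongs to the platform of the small subunit, was at 5.53 to 6.53 CPM in the controls and at 7.10, 6.37 and 11.5 CPM in miDrp1KO, and was 0.22 without F. *Mrpl46*, across their shared promoter, was at 22.3, 17.6 and 24.3 CPM and at 17.5, 24.5 and 28.3 CPM, with a log2 fold change of 0.13 (SE 0.20), and -0.01 without F. The mitochondria-specific *Mrps33* was at 5.07, 7.94 and 5.18 CPM and at 9.38, 7.55 and 8.21 CPM, with a log2 fold change of 0.48 (SE 0.22), and 0.51 without F.

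The lower end of the small subunit held 3 homologues of bacterial proteins. *Mrps5*, homologous to S5 near the mRNA entry, was at 38.2, 25.5 and 32.1 CPM in the controls and at 24.7, 24.6 and 27.3 CPM in miDrp1KO A, E and F. *Mrps2*, homologous to S2, was at 18.6, 16.1 and 15.9 CPM and at 13.8, 15.3 and 13.7 CPM, with no overlap. *Mrps15*, homologous to S15, was at 78.9, 72.1 and 82.1 CPM and at 74.7, 60.6 and 64.2 CPM. In none of these 3 genes was library F the highest of the 6, unlike in most members. Their log2 fold changes were -0.32 (SE 0.17), -0.24 (SE 0.16) and -0.23 (SE 0.16), with adjusted p of 0.528, 0.601 and 0.633 by edgeR. *Mrps18b* (-0.12, SE 0.26) and *Mrps23* (-0.12, SE 0.18) completed the 5 lowest, and were at -0.26 and -0.20 without F.

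**Figure D4:**
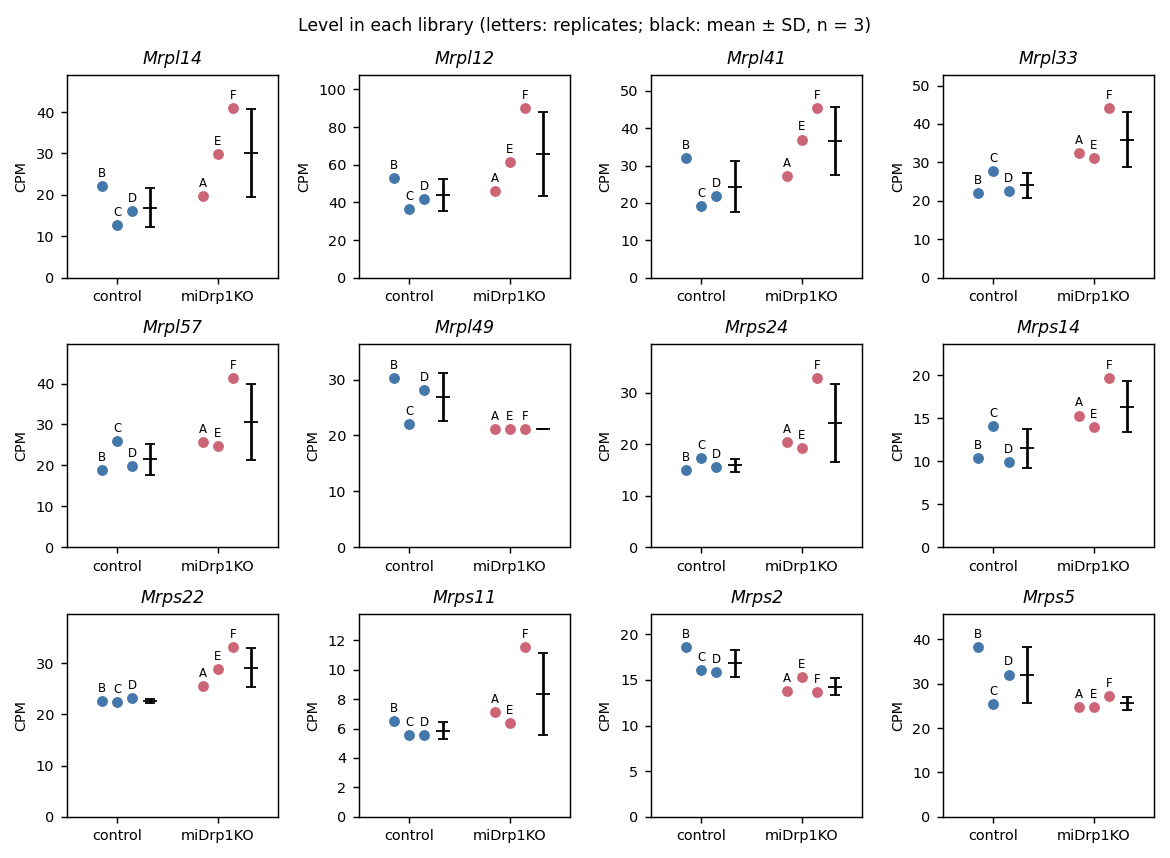
CPM of 12 members in each library, with control libraries in blue, miDrp1KO libraries in red, letters for replicates, and mean ± SD (n = 3) in black. Library F is the highest point for the 8 members with an unadjusted p under 0.05 and for *Mrps11*, but not for *Mrpl49*, *Mrps2* and *Mrps5*.

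By their origin, 27 of 29 tested large subunit genes with a bacterial homologue were above 0 (median log2 fold change 0.23), as were 15 of 21 mitochondria-specific ones (median 0.09), counting here *Mrps18a* and *Mrps30*, whose proteins sit in the large subunit in spite of their names. In the small subunit 11 of 16 homologues were above 0 (median 0.11) and 6 of 10 mitochondria-specific genes (median 0.04). Without library F these counts were 17 of 29 and 7 of 21 in the large subunit, with medians of 0.05 and -0.09, and 7 of 16 and 2 of 10 in the small, with medians of -0.05 and -0.13. Without control C, 10 of 21 mitochondria-specific genes of the large subunit and 3 of 10 of the small were above 0, with medians of -0.01 and -0.04. The differences between these classes were not tested. *Mrps36* is now regarded as a part of the 2-oxoglutarate dehydrogenase complex rather than of the mammalian ribosome, and was left out of these classes. It was at 6.92 to 7.86 CPM in the controls and at 7.34, 7.16 and 12.9 CPM in miDrp1KO A, E and F, with a log2 fold change of 0.29 (SE 0.24), and -0.01 without F.

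By position, all 3 genes of the stalk and its base, *Mrpl10*, *Mrpl11* and *Mrpl12*, had estimates above 0 (0.10, 0.23 and 0.59). Of 8 genes around the tunnel exit 7 were above 0 with a median of 0.19, and of 7 in the central protuberance 6 were above 0 with a median of 0.13, and none of these 15 had an unadjusted p under 0.05. At the tunnel exit *Mrpl44*, *Mrpl45*, *Mrpl24*, *Mrpl47*, *Mrpl22* and *Mrpl17* had log2 fold changes of 0.05, 0.04, 0.14, 0.24, 0.25 and 0.29, and of -0.15, -0.15, 0.01, 0.38, 0.11 and 0.16 without F. *Mrpl45*, through which the ribosome is held at the inner membrane, was at 36.0, 27.2 and 29.2 CPM in the controls and at 24.6, 29.9 and 40.2 CPM in miDrp1KO A, E and F. In the central protuberance *Mrpl18*, *Mrpl27*, *Mrpl40* and *Mrpl48* had log2 fold changes of 0.08, 0.23, 0.23 and 0.10, and of -0.03, 0.11, 0.04 and -0.14 without F. Without library F the estimates of *Mrpl10*, *Mrpl11* and *Mrpl12* were -0.12, 0.06 and 0.32, and 4 of 8 tunnel genes and 3 of 7 genes of the central protuberance were above 0. Without control C, 4 of 8 tunnel genes were above 0, with a median of 0.03.

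The *Mrps18* paralogues encode 3 related proteins that occupy different places, *Mrps18c* in the small subunit at the site of bacterial S18, *Mrps18b* elsewhere in the small subunit and *Mrps18a* in the large. *Mrps18a* was at 27.3, 23.8 and 27.0 CPM in the controls and 23.0, 23.4 and 35.1 CPM in miDrp1KO A, E and F. *Mrps18b* was at 9.23, 10.6 and 9.13 CPM and 10.6, 5.37 and 10.8 CPM. *Mrps18c* was at 10.6, 20.1 and 12.4 CPM and 17.9, 15.9 and 18.4 CPM. The groups overlapped for all 3, and the log2 fold changes were 0.06 (SE 0.19), -0.12 (SE 0.26) and 0.29 (SE 0.23), and -0.14, -0.26 and 0.26 without F. For *Mrps18b*, 63.7% of stretches of 50 bases are shared with other genes, and the outlying value in E alone made the estimate negative (0.15 without E).

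Members that cause inherited mitochondrial disease when mutated were listed as 13 genes, of which 10 were above 0, with a median log2 fold change of 0.14. *Mrpl12*, *Mrps14* and *Mrps22* among them had an unadjusted p under 0.05 and were higher, against 4.68% of all tested genes. None of these 3 had an unadjusted p under 0.05 without library F or without control D. Without library F, 7 of the 13 were above 0 with a median of 0.013, and without control C 7 were, with a median of 0.0043. By the same annotated lengths, members with transcripts under 1000 bp had a median of 0.27 (24 of 29 above 0). Members of 1000 bp or more had a median of 0.09 (36 of 48 above 0). Without library F these were 0.11 (16 of 29) and -0.05 (17 of 48), and without control C 0.22 (22 of 29) and 0.02 (26 of 48). The median length of the members was 1226 bp against 2764 bp for all tested genes. After correction of each library for transcript length and GC content the medians were 0.06 for the large subunit (32 of 48 above 0) and 0.02 for the small (15 of 29 above 0), against -0.05 for all genes, and the medians of short and long members were 0.05 and 0.04. Reads that fit more than 1 gene could touch 49 members that share a stretch of 50 bases with another gene, 5 of them (*Mrpl23*, *Mrpl53*, *Mrps18b*, *Mrps25* and *Mrps34*) over 50% or more of their transcript. Among the members with under 10% shared, 25 of 32 large and 11 of 16 small subunit genes were above 0, with medians of 0.15 and 0.08.

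**Figure D5:**
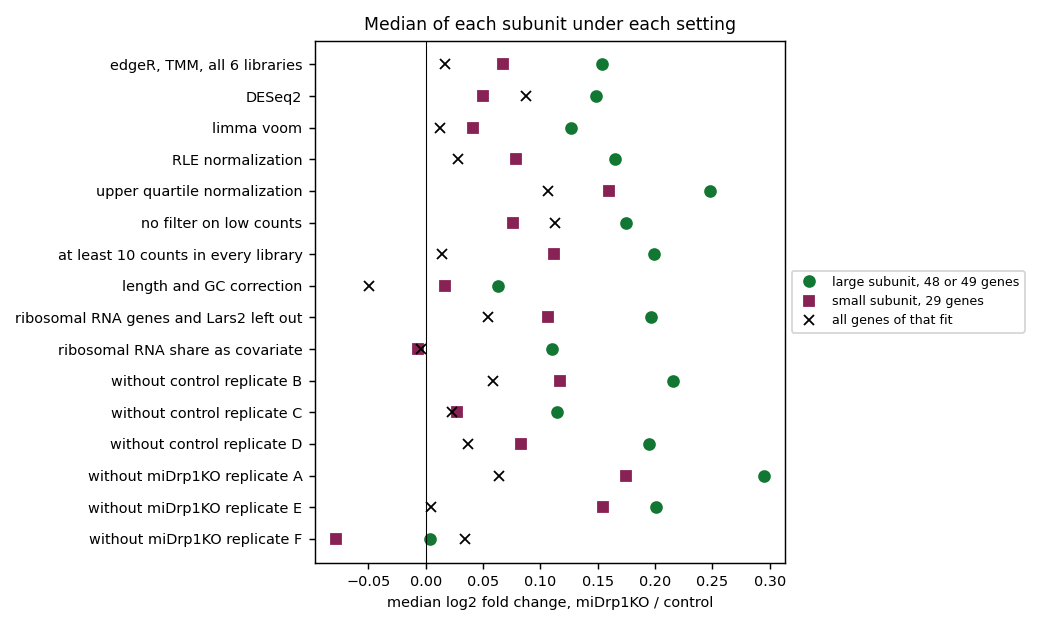
Median log2 fold change of the large subunit (circles), the small subunit (squares) and all genes of the same fit (crosses) under each of 16 ways of processing, named at the left. The large subunit lies above all genes in each of them except without miDrp1KO replicate F, where the medians are 0.0036 and 0.034. The small subunit lies below all genes under DESeq2 (0.050 and 0.087) and without the filter on low counts (0.076 and 0.11). In both of these fits all genes include those that fail the filter, and the main fit gave 0.068 and 0.017. The small subunit also lies below all genes with the ribosomal RNA covariate (-0.0066 and -0.0038) and without miDrp1KO replicate F (-0.078 and 0.034).

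The genes around the ribosome did not share 1 direction. The 5 subunits with other names included *Chchd1*, a small subunit protein, at 54.4, 64.6 and 61.0 CPM in the controls and 71.7, 95.3 and 95.9 CPM in miDrp1KO A, E and F. All miDrp1KO libraries were above the controls, with a log2 fold change of 0.55 (SE 0.18, adjusted p = 0.382 by edgeR). The other 4 were *Gadd45gip1* (0.20, SE 0.24), *Aurkaip1* (0.17, SE 0.19), *Dap3* (0.08, SE 0.18) and *Ptcd3* (-0.10, SE 0.18). Without library F, *Chchd1* was at 0.50 and these 4 at -0.09, -0.03, -0.08 and -0.08. Of 27 assembly factors, which process the ribosomal RNA and build the subunits, 16 were above 0, with a median of 0.05 and none at an unadjusted p under 0.05. The median was -0.01 without library F and -0.04 without control C (13 of 27 above 0 in each), and -0.03 with the length and GC correction (12 of 27 above 0). The 2 with the lowest p were *Trmt61b* (0.68, SE 0.33) and *Mettl17* (-0.38, SE 0.20), at 0.40 and -0.47 without F.

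The list of translation factors, which also held *Slirp* and *Lrpprc*, had estimates mostly on the other side of 0. In it 13 of 15 were below 0, with a median log2 fold change of -0.18. An unadjusted p under 0.05 was reached by 3 (2 lower and 1 higher), against 10.9% of all tested genes. *Gfm2*, the factor that splits the ribosome after termination, was at 115, 74.5 and 99.7 CPM in the controls and at 69.5, 64.4 and 62.0 CPM in miDrp1KO A, E and F, without overlap, with a log2 fold change of -0.56 (SE 0.19, adjusted p = 0.381 by edgeR). *Gfm1*, the elongation factor that moves the ribosome along, was at 153, 79.7 and 135 CPM and at 87.0, 82.5 and 76.2 CPM, with a log2 fold change of -0.58 (SE 0.23, adjusted p = 0.414). The exception with an unadjusted p under 0.05 was *Slirp* (0.49, SE 0.20), an RNA-binding partner of Lrpprc, while *Lrpprc* itself was at -0.38 (SE 0.21). Without F, *Gfm2*, *Gfm1*, *Slirp* and *Lrpprc* were at -0.51, -0.51, 0.35 and -0.23. Without library F, 2 of 15 translation factors were above 0 as before, and their median was -0.17. The median was -0.08 without control B (3 of 15 above 0). No factor had an unadjusted p under 0.05 without B or without D, against 8.80% and 5.36% of all genes in those fits. Without C, 6 of 15 had, against 10.5% of all genes. With upper quartile normalization 5 of 15 were above 0, with a median of -0.10. Their median transcript was 2538 bp, longer than that of the members, and after the correction for length and GC content 13 of 15 were below 0 with a median of -0.21.

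For scale, the cytosolic ribosomal proteins had a median log2 fold change of 0.29 (76 of 83 above 0, 9 with an unadjusted p under 0.05), and the nuclear subunits of complex I, the largest complex of the respiratory chain, a median of 0.36 (29 of 37 above 0, 10 with an unadjusted p under 0.05). All of these 9 and 10 genes were higher, against 4.68% of all tested genes. Without library F these medians were 0.17 and 0.15, with 69 of 83 and 25 of 37 above 0. With the length and GC correction they were 0.15 (55 of 82 above 0, 1 with an unadjusted p under 0.05) and 0.10 (23 of 37 above 0, 8 with an unadjusted p under 0.05). Of all genes, 12.8% had an unadjusted p under 0.05 in that fit. With 1 library left out, the cytosolic genes at an unadjusted p under 0.05 ran from 3 (without B) to 26 (without A). Those of complex I ran from 4 (without D) to 19 (without A). The shares of all genes were 8.80% without B, 17.5% without A and 5.36% without D. In the fit without F, 33 of the 77 mitochondrial ribosomal protein genes were above 0. The differences between the gene lists were not tested.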

How the data were processed

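Total RNA of quadriceps muscle was sequenced in 3 control and 3 miDrp1KO libraries. The authors deposited raw whole-number counts per gene, 1 table per library, for 27179 Entrez genes. Per the study's methods, stranded libraries were depleted of ribosomal RNA and sequenced in pools, reads were checked with FastQC, and Rsubread 2.4.2 aligned them to GRCm38 and counted them. The library-to-pool assignment and the treatment of strand, overlapping genes and multiply mapping reads are not given in the sources used here.

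Counts were tested here in R 4.3.3 with edgeR 4.0.16 (TMM, filterByExpr by group, robust quasi-likelihood F-test, Benjamini-Hochberg adjustment over 16483 genes, threshold 0.05) on all 6 libraries, with genotype as the only term. The common biological coefficient of variation was 0.252. A two-sided exact permutation test of a single gene cannot go below 0.1 with 3 against 3, so none is quoted. The scripts were tested on simulated data. DESeq2 1.42.0, limma voom 3.58.1, RLE and upper quartile normalization, other filters on low counts, a correction per library for length and GC content (14833 genes had both), removal of *Lars2* and the ribosomal RNA genes, a model term for the share of counts on ribosomal RNA, and leaving out each library were tried. Transcript lengths, exon overlaps and shared stretches of 50 bases came from GENCODE vM21 (GRCm38), and promoter sequences from RefSeq (GRCm38.p6). For log2 deviations 0.5 CPM was added.

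The members and gene lists were chosen with earlier results of these data known. Named were, in each subunit, the 5 largest positive and 5 largest negative fold changes, members without overlap or with an unadjusted p under 0.05, the 3 highest and 2 lowest per kb, the stalk, tunnel exit, central protuberance and *Mrps18* genes, and *Mrpl36* and *Dnm1l*. In other lists the 2 lowest p were named. Others were named after their values were seen.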

Additional observations from a re-analysis of the deposited data

How the results depend on the processing

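No member passed an adjusted p of 0.05 under any of 15 alternatives, and the lowest adjusted p of a member was 0.0798, without miDrp1KO replicate A. *Mrpl36*, with 2 counts in all, did not pass the filter on low counts. It had 0 counts in control D, the deepest library at 62042255 counts, and the reason was not tested. No paired analysis was possible because the groups share no replicate letters. Upper quartile normalization shifted the median of all genes to 0.11, from 0.02.

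The count of members with an unadjusted p under 0.05, 8 in the main fit (10.9% of all genes), was 17 with upper quartile normalization (11 large, 6 small, 11.1% of all genes). With the length and GC correction it was 5 (3 large, 12.8%), of which 4 were higher. The other, *Mrpl49*, was lower and was not among the 8. With the ribosomal RNA covariate the count was 2 (2 large, 0 small, 8.34%). The small subunit had 5 without the filter on low counts (9.40%). Over the fits that left out 1 library, the count ran from 3 (without D, 5.36% of all genes, or without F, 7.79%) to 14 (without A, 17.5%), with 5 without B (8.80%), from 2 to 9 in the large subunit (3 without E) and from 1 to 5 in the small (1 without B). Members above 0 ran from 33 (without F) to 68, large subunit genes from 24 to 44 and small subunit genes from 9 to 24. The small subunit median was -0.0066 with the ribosomal RNA covariate and -0.078 to 0.18 with a library left out. The cause of these changes was not tested.

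Of 48 named genes, 29 kept their direction in every setting and 19 did not, and no reversed value passed the threshold. With a library left out, the log2 fold changes of those that turned ran from -0.12 to 0.28 for *Mrpl10*, -0.031 to 0.19 for *Mrpl18*, -0.064 to 0.28 for *Mrpl19*, -0.11 to 1.01 for *Mrpl23*, -0.26 to 0.051 for *Mrpl37*, -0.27 to 0.13 for *Mrpl42*, -0.15 to 0.18 for *Mrpl44*, -0.15 to 0.21 for *Mrpl45*, -0.015 to 0.32 for *Mrpl46*, -0.013 to 0.38 for *Mrpl47*, -0.14 to 0.24 for *Mrpl48*, -0.063 to 0.27 for *Mrpl54*, -0.14 to 0.19 for *Mrps18a*, -0.26 to 0.15 for *Mrps18b*, -0.024 to 0.25 for *Mrps21*, -0.23 to 0.0060 for *Mrps23*, -0.19 to 0.31 for *Mrps26* and -0.34 to 0.22 for *Mrps35*. The ribosomal RNA covariate gave -0.078 for *Mrpl24*, 0.11 for *Mrpl42*, -0.041 for *Mrpl44*, -0.037 for *Mrpl45*, -0.076 for *Mrpl48*, -0.042 for *Mrps18a*, -0.12 for *Mrps21* and -0.16 for *Mrps26*. The length and GC correction gave -0.0036 for *Mrpl44*, -0.12 for *Mrpl54*, -0.14 for *Mrps18a* and -0.21 for *Mrps21*. *Mrpl37* was 0.011 with upper quartile normalization, and *Mrpl42* was 0.069 with it, 0.023 with at least 10 counts in every library and 0.021 without ribosomal RNA genes and *Lars2*.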

Other observations

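*Mrpl23* was the only member at low levels in control C and miDrp1KO A together. By a rule chosen after its values were seen, 62 of 8697 tested genes with 5 CPM or more in each of the other 4 libraries (0.713%) had both C and A more than 3-fold below the lowest of those 4. They included 8 cytosolic ribosomal protein genes and *Fau*, the neighbour of *Mrpl49*. Whether the reads of C and A were counted differently from those of the other libraries was not tested.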
